A study of Mus musculus with 12 samples.

Results

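Large neurons cut by laser from the dorsal root ganglia (DRG) of mice in environmental enrichment (EE) were compared with those of mice in standard housing (SH). They are 6 of the 12 libraries of a study that also sequenced whole ganglia, 3 libraries for each housing, and every gene that passed the expression filter was described: 16186 of the 44345 gene names in the count table. All mice were C57BL/6, 5 to 8 weeks old, and lived for 10 days in an enriched or a standard cage. The labels name no allele, transgene or drug for either group. Each captured library came from ganglia of the sciatic levels of 3 mice, in which neurons of at least 30 µm were picked from 16 µm sections stained with toluidine blue. From each pool 100 ng of RNA, with integrity numbers of 6 to 7, entered a ribosomal RNA depletion protocol and was read in pairs of 125 bases. Whether different libraries hold different mice is not in the labels, and the p-values then cover only library-to-library spread, which may be technical.

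Neurons of the DRG send 1 branch to skin, muscle or viscera and another to the spinal cord. Large ones with myelinated axons include proprioceptors, which report muscle length and carry parvalbumin, and low-threshold touch neurons, and both are rich in neurofilaments. Small ones include peptidergic nociceptors for heat and injury, non-peptidergic nociceptors, itch neurons and a class of C fibres for gentle touch, and they carry the sodium channel genes Scn10a and Scn11a. Satellite glia wrap every cell body so closely that a laser cut around a neuron takes some of them along. The comparison asks which transcripts of such large neurons differ after enriched housing.

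The captured RNA held markers of large and small neurons alike. As a mean level in SH, in CPM (reads of a gene scaled to a common library size) per kilobase of the longest transcript, the neurofilament genes Nefl and Nefh stood at 1307 and 477 and the parvalbumin gene Pvalb at 36.2. On the same scale Scn10a stood at 160.1, Mrgprd, which defines a class of non-peptidergic nociceptors, at 78.7, the peptide gene Calca at 429 and the satellite glia gene Fabp7 at 175. None of the 34 large-diameter neuron markers was under 1 CPM in every library, and neither was any of the 18 non-peptidergic markers. The label of large neurons is therefore one of size at capture, and the libraries carried RNA of small-neuron types as well. All libraries were from males by their counts, with 5 to 13 reads of Xist and 2839 to 4272 reads of the Y-linked Ddx3y.

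Between 19296230 and 29434351 reads per library lay in genes. Per the labels, SH replicates 1 and 3 (SH1, SH3) and EE replicates 2 and 3 (EE2, EE3) ran in lane 3, SH2 in lane 2 and EE1 in lane 1. Libraries of 1 group within lane 3 differed least, with a chi-square per degree of freedom of 6.54 between SH1 and SH3 and 5.06 between EE2 and EE3, against 11.98 to 21.46 for the pairs of a group that crossed lanes. SH2 and EE1 thus stood apart, each in its own group, and genes were fitted over all 6 libraries and within the 4 of lane 3. For most genes named below, only the lane 3 log2 fold change is given, and rose or fell refers to that fit. Over all 6 libraries only 3 genes passed. Lanes 1 and 2 hold 1 library each, so no test within them is possible. The transcript length of genes moved with the library as well: across 9443 genes, which are not independent replicates, Spearman's correlation of a gene's deviation with transcript length was −0.49 in EE1, −0.39 in SH1 and 0.29 in SH2.

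Over all 6 libraries, 3 of 16186 genes changed (0.0185%), 1 rising (0.00618%) and 2 falling (0.0124%) in EE, at a Benjamini-Hochberg adjusted p under 0.05 in edgeR's quasi-likelihood test. Fabp7, a fatty acid binding protein of satellite glia, rose, and Mrgprb5 and Fnbp1l fell. Mrgprb5 encodes a receptor of the Mas-related family that belongs to itch-type sensory neurons, and Fnbp1l encodes a protein with an F-BAR domain that bends membranes and drives actin assembly. The promoters of the 3 genes are shown because they are the genes called over all libraries. Each run covers 250 bases before to 50 after the RefSeq start on the gene's own strand (GRCm38.p6), with CG dinucleotides, the sites of DNA methylation, in capitals.
Mrgprb5, chr7:48168936-48169235, minus strand: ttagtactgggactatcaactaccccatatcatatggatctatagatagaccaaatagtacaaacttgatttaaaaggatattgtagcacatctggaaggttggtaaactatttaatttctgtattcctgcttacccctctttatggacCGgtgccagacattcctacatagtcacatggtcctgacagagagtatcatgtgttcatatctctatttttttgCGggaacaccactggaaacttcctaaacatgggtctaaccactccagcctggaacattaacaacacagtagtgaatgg
Fabp7, chr10:57784673-57784972, plus strand: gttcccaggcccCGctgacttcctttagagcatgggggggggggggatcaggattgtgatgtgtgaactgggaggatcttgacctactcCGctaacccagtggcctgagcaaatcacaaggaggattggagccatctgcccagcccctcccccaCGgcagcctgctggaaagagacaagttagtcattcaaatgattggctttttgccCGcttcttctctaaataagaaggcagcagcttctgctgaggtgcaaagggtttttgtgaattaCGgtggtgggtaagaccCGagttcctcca
Fnbp1l, chr3:122619665-122619964, minus strand: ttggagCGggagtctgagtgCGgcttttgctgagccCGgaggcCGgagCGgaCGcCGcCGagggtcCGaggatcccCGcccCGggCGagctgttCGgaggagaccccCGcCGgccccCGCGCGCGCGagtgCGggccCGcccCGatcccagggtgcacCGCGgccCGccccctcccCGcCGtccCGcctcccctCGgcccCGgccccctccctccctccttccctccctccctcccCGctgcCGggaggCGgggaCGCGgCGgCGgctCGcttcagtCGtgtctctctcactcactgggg
The stretch at Mrgprb5 held 2 CG dinucleotides and 39.7% G and C, the one at Fabp7 held 6 and 54.0%, and the one at Fnbp1l held 40 and 78.3%, where the median over 14125 promoters of tested genes was 19 CG dinucleotides. The core motif of RUNX factors, TGTGGT on either strand, was in none of the 3. It was in 12.3% of promoters of tested genes and in 16.8% of all 32851 promoters of this length.

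Fabp7 stood at 153, 157 and 152 CPM in SH1, SH2 and SH3 and at 268, 306 and 231 CPM in EE1, EE2 and EE3 (log2 fold change 0.80, SE 0.09, edgeR adjusted p = 0.0322). Its 3 SH values lay close together and every EE library was above them, EE2 furthest. Its position is chromosome 10, 57784881 to 57788450 (GRCm38, plus strand). Mrgprb5 (chromosome 7, 48167983 to 48169019, minus strand) stood at 25.6, 28.3 and 27.0 CPM in the SH libraries and at 12.6, 14.3 and 12.2 CPM in the EE libraries, in replicate order (log2 fold change −1.05, SE 0.10, edgeR adjusted p = 0.0119). The groups did not overlap, and every EE value was nearer to the other EE values than to any SH value. Fnbp1l (chromosome 3, 122538719 to 122619715, minus strand) went from 65.9, 74.2 and 68.9 CPM in SH to 43.5, 44.2 and 46.3 CPM in EE (log2 fold change −0.64, SE 0.07, edgeR adjusted p = 0.0322), again with no overlap. Within lane 3 the log2 fold changes were 0.81, −0.99 and −0.57 (edgeR adjusted p = 0.000925, 0.000912 and 0.00112), and the 2 libraries outside lane 3 differed the same way (EE1 minus SH2 0.76, −1.14 and −0.76 in log2 CPM). All these libraries took part in the fit that selected the 3 genes, so neither set of values is independent evidence. The number of genes called over 6 libraries depended on which libraries were fitted. Without any single SH library 0 genes passed, without EE2 or EE3 1 gene did, and without EE1 602 did. With transcript length and GC content corrected per library, the call of Fabp7 ended (edgeR adjusted p = 0.0732).

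**Figure D1:**
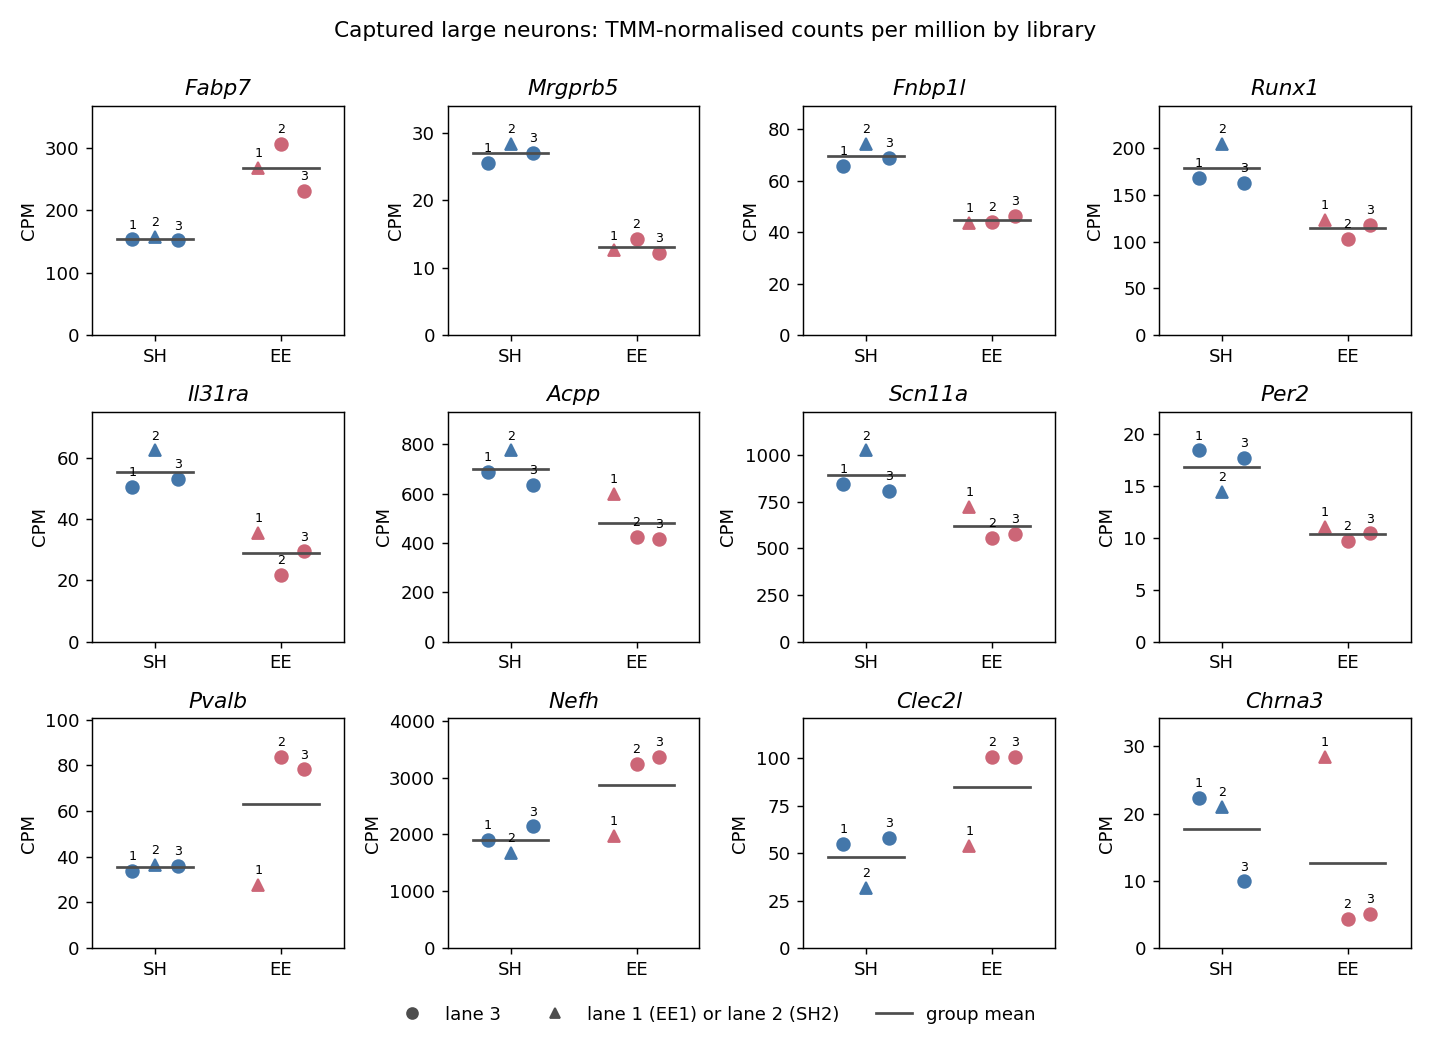
TMM-normalised CPM of 12 genes in each captured-neuron library, with numbers for replicates, circles for lane 3, triangles for lanes 1 and 2, and bars for group means. Fabp7, Mrgprb5, Fnbp1l, Runx1, Il31ra, Acpp, Scn11a and Per2 have non-overlapping groups, while for Pvalb, Nefh, Clec2l and Chrna3 EE1 lies with or beyond the SH libraries and apart from EE2 and EE3.

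Within lane 3, 658 of 16199 genes changed (4.06%), 305 rising (1.88%) and 353 falling (2.18%) in EE, by the same edgeR test on 2 libraries against 2. The measured spread was smaller there, with a common biological coefficient of variation of 0.071 against 0.121 over all 6 libraries. Most of these changes were small: 215 of the 304 higher genes that were also tested over all 6 libraries, and 260 of the 353 lower ones, changed by under 1.5-fold, and 17 and 25 by at least 2-fold. Protein-coding genes made up 98.7% of the higher and 97.9% of the lower genes whose type is annotated, against 92.2% of all genes tested. EE1 and SH2 took no part in this fit. They differ in housing too, but without replication, and housing cannot be told apart there from lane 1 against lane 2. EE1 was above SH2 for 83.6% of the 304 higher genes and below SH2 for 81.9% of the 353 lower ones, where over all genes it was above for 49.8%. The median difference there was 0.27 and −0.28 (log2), against 0.43 and −0.44 within lane 3. For 33.2% of the higher and 25.8% of the lower genes EE1 lay within the range of the SH libraries, as it did for 38.3% of all genes, and for 12.2% and 10.5% it lay beyond all SH libraries on the opposite side.

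**Figure D2:**
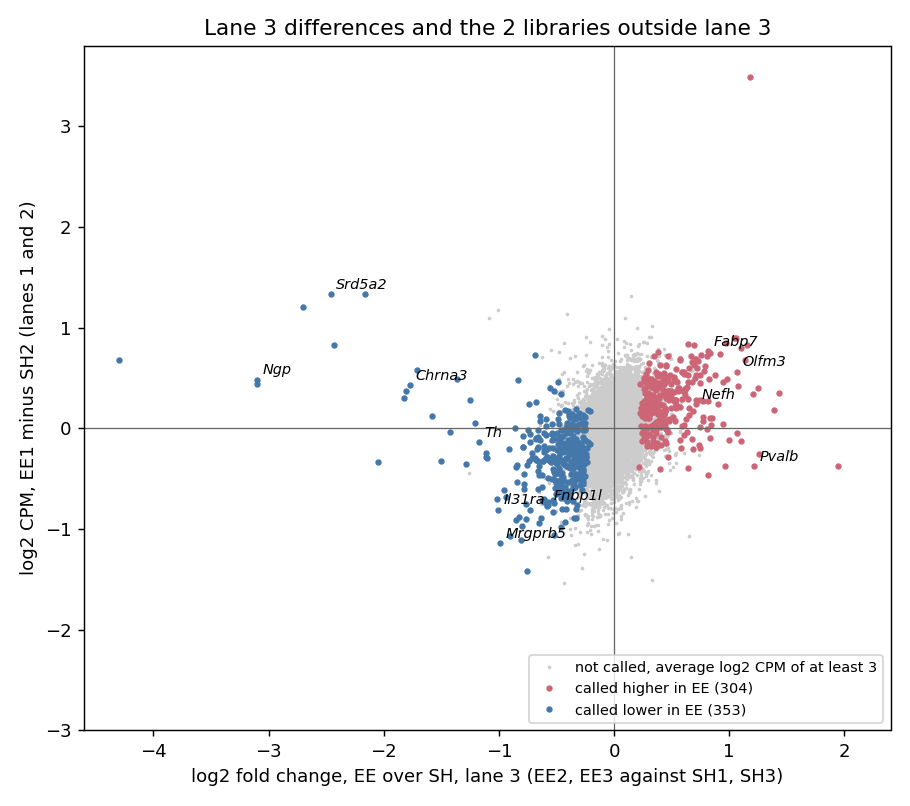
Each point is a gene, with its log2 fold change within lane 3 on the x axis and the log2 CPM of EE1 minus SH2 on the y axis (7 of 9390 uncalled genes lie outside the axes). Most called genes lie in the upper right and lower left parts of the plot, 254 of 304 higher genes being above 0 on the y axis, while Pvalb, Srd5a2, Chrna3 and Ngp lie in the other corners.

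With the threshold at 0.1, 106 genes passed over all 6 libraries (0.655%), 33 higher and 73 lower in EE and the 3 above included. Of these, 104 were called within lane 3 and all 106 had the same sign there. The lane 3 libraries were among the 6 that selected these genes, so this overlap is not independent evidence. Lower in EE were 2 genes that specify small sensory neurons. Runx1, a transcription factor of the non-peptidergic lineage, stood at 167, 204 and 162 CPM in SH1 to SH3 and at 123, 103 and 118 CPM in EE1 to EE3, and it fell within lane 3 (−0.58, SE 0.07, edgeR adjusted p = 0.000989). Prdm12, which pain-sensing neurons need in order to form, stood at 81.1, 88.0 and 77.7 and 60.5, 54.2 and 61.4 CPM and fell within lane 3 by 0.46 on the log2 scale. Il31ra, the receptor subunit for the itch cytokine interleukin-31, stood at 50.5, 62.5 and 53.2 CPM in SH and at 35.4, 21.8 and 29.5 CPM in EE and fell within lane 3 (−1.01, SE 0.12, edgeR adjusted p = 0.000781). For these 3 genes every EE library was below every SH library, which was a condition for choosing them, and SH2 was the highest of the 6.

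Genes of varied roles, chosen among those with groups apart, also fell within lane 3. St6gal2, a sialyltransferase, stood at 29.7, 38.4 and 30.3 CPM in SH and 20.6, 17.6 and 16.4 CPM in EE, a log2 fold change of −0.82 within lane 3. Fmnl1, a formin that elongates actin filaments, stood at 31.3, 40.2 and 36.6 and 21.4, 20.8 and 22.9 CPM (−0.63 within lane 3). Pstpip2, an F-BAR protein of the actin cytoskeleton, the metalloprotease gene Mmp25, the chromatin repressor gene Bahd1, Mpped2 and 2510009E07Rik fell as well, by 0.58, 0.49, 0.47, 0.76 and 0.47 on the log2 scale.

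On the higher side, S100b, a calcium-binding protein of glia and of large sensory neurons, stood at 357, 288 and 354 CPM in SH and at 446, 478 and 496 CPM in EE and rose within lane 3 (0.45, SE 0.06, edgeR adjusted p = 0.000849). Tuba4a, an alpha-tubulin, stood at 129.8, 106 and 121 and 153, 179.9 and 172 CPM and rose by 0.49 within lane 3. Aif1l, an actin-binding protein, stood at 13.6, 13.2 and 11.9 and 21.04, 20.2 and 20.6 CPM and rose by 0.68. In each of the 3 the lowest EE library was above the highest SH library, which was a condition for choosing them. Fxyd7, a subunit of the sodium pump in neurons, Lynx1, a membrane-anchored modulator of nicotinic receptors, Dbi, a carrier of acyl-CoA, Chst2, which sulphates sugar chains, the co-chaperone gene Dnajb4, the adhesion receptor gene Gpr64 and Hist1h2bc rose within lane 3 by 0.52, 0.39, 0.38, 0.59, 0.38, 0.48 and 0.45. Hist1h2bc has near-identical copies in its histone cluster, so its own level is uncertain.

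Markers of small sensory neurons were lower in EE. Of 56 such genes in 4 lists together, 34 fell and 0 rose within lane 3, where 2.18% of all genes fell, and 49 of the 56 had a negative log2 fold change over 6 libraries. In 30 of them every EE library was below every SH library, against 10.9% of all genes, and the median log2 fold change was −0.40 over 6 libraries and −0.43 within lane 3, against medians of 0.00 over all genes. EE1 was below SH2 for 46 of the 56. In such bulk libraries, fewer neurons of a class and less RNA per neuron cannot be told apart.

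The non-peptidergic nociceptors had the most uniform difference. All 18 markers were lower in EE, 16 of them with groups apart, against 10.9% of all genes. Within lane 3, 14 fell, against 2.18% of all genes. Acpp, the acid phosphatase that long served to stain these cells, stood at 689, 776 and 635 CPM in SH and at 599, 426 and 417 CPM in EE and fell within lane 3 (−0.65, SE 0.06, edgeR adjusted p = 0.000223), though it is not on the list. Grik1, a kainate receptor subunit, stood at 339, 427 and 342 and 271, 237 and 244 CPM (−0.50 within lane 3). Plxnc1, a semaphorin receptor, stood at 643, 787 and 637 and 519.5, 464 and 468 CPM (−0.46). In all 3 EE1 was the highest EE library and still below the lowest SH library. P2rx3, the ATP-gated channel of these neurons, Mrgprd, Gfra2, a receptor for the growth factor neurturin, and Lpar3, a lysophosphatidic acid receptor, fell within lane 3 by 0.44, 0.31, 0.50 and 0.73 on the log2 scale.

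Among 14 itch markers 7 fell and 0 rose within lane 3 (median −0.45), against 2.18% and 1.88% of all genes. Besides Mrgprb5 and Il31ra they were Osmr, the partner subunit of the interleukin-31 receptor (113, 111 and 106 CPM in SH, 88.1, 75.4 and 85.1 CPM in EE), and Cysltr2, a leukotriene receptor (23.7, 24.6 and 19.7 and 15.1, 10.3 and 12.3 CPM), both with groups apart. Nppb, the itch transmitter of the somatostatin class, stood at 13.7, 12.5 and 13.5 CPM in SH and at 10.5, 6.59 and 6.00 CPM in EE (−1.11 within lane 3). Mrgprb4, of neurons that respond to stroking, stood at 14.5, 20.3 and 14.9 and 16.6, 7.50 and 6.09 CPM (−1.12), and Sst, encoding somatostatin, at 2.11, 1.08 and 1.86 and 1.45, 0.659 and 0.458 CPM (−1.83). For Mrgprb4 and Sst EE1 lay within the SH range, so only EE2 and EE3 were low.

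Of 9 markers of C-fibre touch neurons 6 fell within lane 3 (median −0.40), against 2.18% of all genes. Th, the tyrosine hydroxylase that marks this class, stood at 54.0, 52.9 and 41.1 CPM in SH and at 48.1, 24.4 and 17.9 CPM in EE (−1.17, SE 0.15, edgeR adjusted p = 0.000994), EE1 being within the SH range and EE2 and EE3 far below it. Slc17a8, the vesicular glutamate transporter of these fibres (18.4, 23.9 and 19.3 and 17.3, 11.9 and 10.1 CPM), and the chemokine-like gene Fam19a4 (66.2, 70.1 and 60.2 and 59.0, 38.1 and 39.0 CPM) had groups apart and fell by 0.78 and 0.71 on the log2 scale. Peptidergic and cold markers were split: of 15, 7 fell and 0 rose within lane 3, against 2.18% and 1.88% of all genes. Their median was −0.31 there and −0.17 over 6 libraries. Oprm1, the mu opioid receptor, stood at 60.3, 60.2 and 58.6 CPM in SH and 47.7, 44.3 and 47.7 CPM in EE, with groups apart. The heat receptor gene Trpv1, by contrast, stood at 187, 164 and 136 CPM in SH and 208, 112 and 123 CPM in EE, EE1 being the highest of all 6 libraries, and it fell within lane 3 alone (−0.46), where DESeq2 and limma-voom did not call it (adjusted p = 0.378 and 0.0526). Calca, which encodes CGRP, was not past the threshold in either fit (0.26, SE 0.11 over 6 libraries and 0.07, SE 0.07 within lane 3).

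Markers of large neurons went the other way, in lane 3. Of 34 such genes 16 rose there, against 1.88% of all genes, and 1 fell, Ret, which non-peptidergic neurons also carry. Their median was 0.40 within lane 3 and 0.28 over 6 libraries. The neurofilament genes Nefl, Nefm and Nefh all rose. Nefh stood at 1898, 1678 and 2141 CPM in SH and at 1978, 3240.1 and 3366 CPM in EE (0.71 within lane 3, SE 0.06, edgeR adjusted p = 0.000164). Pvalb, the marker of proprioceptors, stood at 33.9, 36.2 and 36.0 CPM in SH and at 27.8, 83.8 and 78.3 CPM in EE (1.21, SE 0.08, edgeR adjusted p = 2.51e-05). EE2 and EE3 were far above all SH libraries for both genes, whereas EE1 lay within the SH range for Nefh and below it for Pvalb. Neither passed the threshold over all 6 libraries (edgeR adjusted p = 0.165 and 0.237).

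Of the 34 genes 7 had every EE library above every SH library, against 10.2% of all genes. Nefl was one of them, at 4653, 3842 and 4758 CPM in SH and 5343, 6446 and 6584 CPM in EE (0.47 within lane 3), and S100b, Scn1a and Vamp1 were others. In further genes EE1 did not go with EE2 and EE3. Spp1, encoding osteopontin, which large neurons carry, stood at 53.1, 30.9 and 59.0 and 45.0, 90.7 and 97.7 CPM, Shox2, a transcription factor of touch neurons, at 13.7, 11.8 and 20.2 and 17.3, 31.5 and 30.7 CPM, and Etv1, which proprioceptors need for their connections, at 113, 85.3 and 113 and 77.3, 148 and 161 CPM. All 3 rose within lane 3 (0.75, 0.87 and 0.45), and in all 3 EE1 was apart from EE2 and EE3. Car2, a carbonic anhydrase of large sensory neurons that is not on the list, stood at 35.9, 27.7 and 40.7 and 38.2, 74.6 and 72.5 CPM and rose there by 0.94, as did Clec2l (54.8, 31.8 and 57.8 and 53.9, 100.4 and 101 CPM, 0.84), whose role is less known. Ntrk3, the neurotrophin-3 receptor of proprioceptors, did not pass the threshold in either fit (−0.03 within lane 3, SE 0.08), nor did Runx3, their lineage factor (0.75, SE 0.29), which was present at 2.07 to 4.44 CPM in SH. Of 10 touch neuron markers 2 rose and 1 fell, and of 14 genes of fast firing and metabolism 8 rose and 0 fell. Of 7 proprioceptor markers 3 rose, 0 fell and 0 had groups apart. Their medians relative to SH were −0.31 in EE1, 0.60 in EE2 and 1.08 in EE3. Over the 34 genes EE1 was above SH2 for 23.

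**Figure D3:**
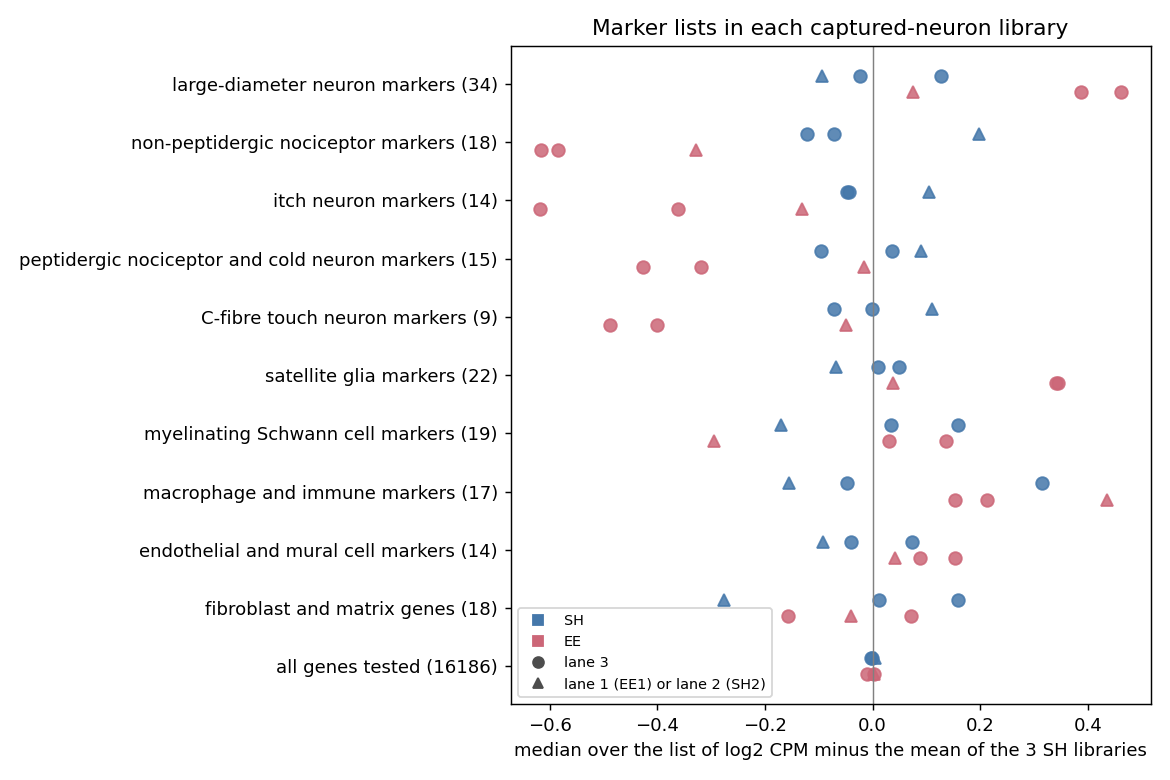
For each list (number of genes tested in brackets), the median over its genes of log2 CPM minus the SH mean, in every library, SH in blue and EE in red, circles for lane 3 and triangles for lanes 1 and 2. EE2 and EE3 lie at 0.39 and 0.46 for large-diameter markers and at −0.62 and −0.58 for non-peptidergic markers, with EE1 at 0.08 and −0.33.

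Satellite glia markers were higher in the EE libraries of lane 3. Of 22 such genes 9 rose and 0 fell within lane 3, against 1.88% and 2.18% of all genes. For 9 all EE libraries were above all SH libraries, against 10.2% of all genes. Summed over the list, the level was 3915 to 4432 CPM in SH and 4669 to 5452 CPM in EE, and no marker was under 1 CPM throughout. Apoe, the lipid carrier of glia, stood at 1357, 1131 and 1296 CPM in SH and at 1592, 1649.7 and 1619 CPM in EE (0.30 within lane 3, SE 0.05). Aldoc, a glycolytic aldolase of glia, stood at 80.1, 68.5 and 72.2 and 95.3, 104 and 102 CPM (0.44), and Slc1a3, a glutamate transporter, at 14.5, 14.5 and 16.2 and 17.7, 21.7 and 22.6 CPM (0.53). The EE group was above the SH group for each of them. Sparcl1, an extracellular glycoprotein that neurons also make, rose too (538, 412 and 548 CPM in SH, 513, 758 and 773 CPM in EE, 0.50), but its EE1 value was within the SH range. Fabp7 is itself on this list and among the 9 that rose, and the list was made with earlier results of these data known. Within lane 3 the glia and large-neuron lists moved in the same direction, and the part of attached glia in either result was not tested.

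Lists of other cell types gave few calls in number. Within lane 3, 1.88% of all genes rose and 2.18% fell. Of 19 myelinating Schwann cell markers 0 passed within lane 3, and their summed level was 1712 to 2096 CPM in SH and 1660 to 1918 CPM in EE. Macrophage and immune markers were scarce, 17 genes summing to 67.1 to 96.6 CPM in SH and 81.4 to 105 CPM in EE, with 2 of them under 1 CPM in every library. Of these 0 rose and 1 fell within lane 3, S100a8, a neutrophil gene. Over 6 libraries 14 of the 17 had a positive log2 fold change (median 0.26, and 0.13 within lane 3), EE1 was above SH2 for 16, and 3 low genes had every EE library above every SH library, the macrophage genes Cd163, Cx3cr1 and Tyrobp. The part of immune cells in the neuronal and glial differences was not tested. Endothelial and mural markers summed to 463 to 531 CPM in SH and 368 to 488 CPM in EE. Of these 1 of 14 fell (7.14%), Rgs5, which sensory neurons express as well. Of 18 fibroblast and matrix genes 1 rose (5.56%) and 2 fell (11.1%), shares above those of all genes. Red blood cell genes stood at 19.8 to 35.9 CPM in SH and 21.1 to 34.3 CPM in EE, and 0 of 7 passed.

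Genes that mark the body level of a neuron differed among the libraries too. Hox genes are read out along the trunk in the order of their paralogue groups, and of 29 Hox genes tested 2 rose and 2 fell within lane 3, against 1.88% and 2.18% of all genes. Hoxd10, of lumbar levels, stood at 10.8, 17.7 and 5.16 CPM in SH1 to SH3 and at 23.1, 0.811 and 3.67 CPM in EE1 to EE3, and Hoxd11 at 9.21, 17.3 and 4.59 and 13.7, 0.710 and 2.57 CPM. Both were low in EE2 and EE3 and fell there (−1.81 and −2.05), while EE1 had a level near or above that of SH2, the highest SH library. DESeq2 and limma-voom did not call Hoxd10 there (adjusted p = 0.486 and 0.0548). Hoxc8 (4.28, 3.85 and 5.58 and 4.18, 8.82 and 8.98 CPM) and Hoxb9 (6.24, 3.102 and 6.61 and 5.23, 11.9 and 9.39 CPM), of more anterior levels, rose within lane 3 (0.85 and 0.73), Hoxb9 by edgeR and not by DESeq2 (adjusted p = 0.0528). EE2 and EE3, the libraries with the highest Pvalb and Nefh, were thus also those with the lowest Hoxd10 and Hoxd11. The part of ganglion level in the neuronal differences was not tested.

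Sodium channel genes went both ways. Of 14 voltage-gated sodium channel genes 4 rose and 6 fell within lane 3, against 1.88% and 2.18% of all genes. The higher ones included Scn1a and Scn8a, pore subunits of fast-firing myelinated neurons, and Scn4b, an auxiliary subunit. Scn1a stood at 318, 279.7 and 350.5 CPM in SH and at 380.4, 454 and 447 CPM in EE (0.43, SE 0.06, edgeR adjusted p = 0.00168), with groups apart. The lower ones included the nociceptor channels Scn10a, Scn11a and Scn9a. Scn11a (Nav1.9) stood at 846, 1026 and 810.1 CPM in SH and at 724, 558 and 579 CPM in EE (−0.54, SE 0.05, edgeR adjusted p = 0.000403), and Scn10a (Nav1.8) at 979, 1232 and 1003 and 852, 734 and 769.8 CPM (−0.40). For both every EE library was below every SH library. Scn9a (Nav1.7) stood at 1412, 1578 and 1376 and 1399, 1129 and 1169 CPM (−0.28), with EE1 inside the SH range. Scn3b, Scn2b and Scn7a fell as well.

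Pore subunits of voltage-gated calcium channels were all lower over 6 libraries, 7 of 7, where 8113 of all 16186 genes tested were lower. Within lane 3, 3 of the 7 fell, against 2.18% of all genes. Cacna1i, a T-type channel that opens near the resting potential, stood at 10.6, 14.9 and 10.7 CPM in SH and at 6.81, 7.05 and 4.40 CPM in EE (−0.90 within lane 3, SE 0.20, edgeR adjusted p = 0.0252). Cacna1b, the N-type channel of nociceptor terminals, stood at 176, 248 and 196 and 142, 141 and 155 CPM (−0.33), and Cacna1c, an L-type channel, at 103, 129 and 106 and 90.0, 83.9 and 78.0 CPM (−0.37). In all 3 the groups were apart. Of 10 auxiliary subunits 0 passed, with a median of 0.04 within lane 3. The 3 pore genes named have long transcripts. Relative to the SH mean, transcripts over 5000 bases had a median of −0.11 (log2) in EE1 and 0.05 in SH2. With transcript length and GC content corrected per library, a step added after seeing the data, the median of all 17 calcium channel genes over 6 libraries was −0.14, against −0.20 without it. The part of transcript length in these differences was not tested.

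Of 48 potassium channel genes 3 rose and 6 fell within lane 3, against 1.88% and 2.18% of all genes. Kcna1, the Kv1.1 channel of myelinated axons, stood at 621, 633 and 718 CPM in SH and 640.0, 870.1 and 904 CPM in EE (0.41), and the two-pore family member Kcnk1 at 54.6, 37.8 and 49.6 and 52.0, 78.6 and 84.2 CPM (0.64). Among those that fell, Kcnt1, a sodium-activated channel, stood at 198, 194 and 171 and 149.6, 141 and 137 CPM (−0.41) and Kcnd3, an A-type channel, at 285, 337 and 259 and 245, 203 and 179 CPM (−0.51), both with groups apart. Of 27 TRP, purinergic and acid-sensing receptors 2 rose and 9 fell, beside the same shares. The acid-sensing channel gene Asic1 rose (34.0, 21.2 and 33.8 and 31.4, 53.4 and 50.1 CPM, 0.61), while Trpa1 and Trpm8, the receptors for irritants and cold, and P2rx2 fell (−0.38, −0.38 and −1.25). P2rx2 was a low gene, at 3.102 to 4.43 CPM in SH.

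Genes of transmitter release went both ways. Of 36 synaptic vesicle genes 6 rose and 6 fell within lane 3, against 1.88% and 2.18% of all genes. Vamp1, the vesicle SNARE of large neurons, rose (228, 198 and 248 CPM in SH, 256, 342 and 329 CPM in EE, 0.49), and Vamp2, its close relative, fell (143, 165 and 129 and 120.1, 97.1 and 113 CPM, −0.37). The groups were apart for both. The fast calcium sensor Syt2 rose (0.44) and Syt1 and Syt7 fell (−0.53 and −0.53), and the glutamate transporter Slc17a7 (VGLUT1) rose (0.62) where Slc17a8 (VGLUT3) fell. Snap25, a SNARE of the plasma membrane, rose (1331, 1223 and 1355 and 1442, 1731 and 1812 CPM, 0.40). Of 33 receptors for transmitters 5 rose and 3 fell. Gabrg1, a GABA-A receptor subunit, stood at 47.0, 32.4 and 59.8 CPM in SH and 54.4, 103 and 99.4 CPM in EE (0.92), with EE1 inside the SH range. Gria4, an AMPA receptor subunit (0.45), Gabrb2 (0.53) and Oprl1, the nociceptin receptor (0.64), rose with groups apart.

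Of 43 calcium signalling genes 3 rose and 6 fell within lane 3, against 1.88% and 2.18% of all genes. Camk2a, a calmodulin-dependent kinase, stood at 93.6, 131 and 90.9 CPM in SH and at 73.5, 61.2 and 66.5 CPM in EE (−0.53, SE 0.07, edgeR adjusted p = 0.00125), Camk4 at 74.2, 97.7 and 75.4 and 69.4, 50.2 and 50.2 CPM (−0.58), and the protein kinase C gene Prkca at 552, 704 and 549 and 456, 383 and 401 CPM (−0.49). In each of the 3 SH2 was the highest library and all EE libraries were below all SH libraries. The sodium-calcium exchangers went opposite ways, Slc8a1 falling (−0.79) and Slc8a3 rising (0.39), and the calcium sensor gene Vsnl1 rose (0.50).

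Nuclear genes of the respiratory chain were slightly higher in EE as a whole, with few single calls. All 37 complex I subunits and all 39 subunits of complexes II to V had a positive log2 fold change over 6 libraries, with medians of 0.27 and 0.25, and 44 of the 76 had groups apart, against 10.2% of all genes. Within lane 3 the medians were 0.17 and 0.15, 2 of the 76 rose, Cox7b (148, 119.8 and 127 CPM in SH, 189, 171 and 168 CPM in EE, 0.30) and Cox5a (36.8, 35.4 and 34.3 and 44.4, 43.9 and 45.9 CPM, 0.34), and 0 fell. Both encode subunits of cytochrome c oxidase, and the call of Cox5a ended with DESeq2 (adjusted p = 0.0745), with library size alone and with length and GC corrected (edgeR adjusted p = 0.0526 and 0.0531). EE1 was above SH2 for 75 of the 76. These genes have short transcripts, and transcripts under 1500 bases were higher in EE1 than in the SH mean by a median of 0.24 (log2) over all genes. With transcript length and GC content corrected per library (for list medians and for lane 3 a step added after seeing the data), all 37 complex I subunits and 38 of the 39 others had a positive sign, with medians of 0.21 and 0.20.

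Of 11 genes of the mitochondrial genome, all had a positive log2 fold change within lane 3 (median 0.15) and 8 over 6 libraries (median 0.06), where EE1 was below SH2 for 7. Of these 1 rose within lane 3, mt-Cytb (0.21, not past the threshold with length and GC corrected). With that correction 5 of the 11 were positive over 6 libraries. Among 32 enzymes of glycolysis and the TCA cycle 5 rose and 1 fell, against 1.88% and 2.18% of all genes. Pkm, which makes pyruvate, stood at 943, 796 and 909 CPM in SH and at 1061, 1174 and 1137 CPM in EE (0.32), the lactate dehydrogenase gene Ldhb at 139, 108 and 127 and 148, 177 and 175 CPM (0.41), and the malate dehydrogenase gene Mdh1 at 288, 255 and 274 and 347, 349.9 and 336 CPM (0.29). All 3 had groups apart, and Eno2 and Aldoc rose too. Hk2, a hexokinase, fell within lane 3 (−1.21) from a low level, with EE1 (16.0 CPM) the highest of the 6 libraries.

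Ribosomal protein genes were higher in EE1 but not in EE2 and EE3. Of 76 such genes 72 had a positive log2 fold change over 6 libraries and 12 within lane 3, 0 passed in either fit, and EE1 was above SH2 for all 76. Their median was 0.07 over 6 libraries and −0.08 within lane 3, and −0.01 and −0.04 in EE2 and EE3 against 0.28 in EE1, relative to SH. Rpl3, for example, stood at 349, 304 and 314 CPM in SH and at 391, 313 and 312 CPM in EE. These genes too have short transcripts (median 1100 bases). Among 9443 genes, transcripts under 1500 bases had medians of 0.24 in EE1, 0.08 in EE2 and 0.06 in EE3, relative to SH. After the length and GC correction 51 of the 76 were positive over 6 libraries, with medians of 0.02 there and −0.10 within lane 3. The part of transcript length was not tested. Of 31 proteasome subunits 0 passed and of 22 chaperones 1 rose, Dnajb4, with medians of 0.04 and 0.09 within lane 3.

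**Figure D4:**
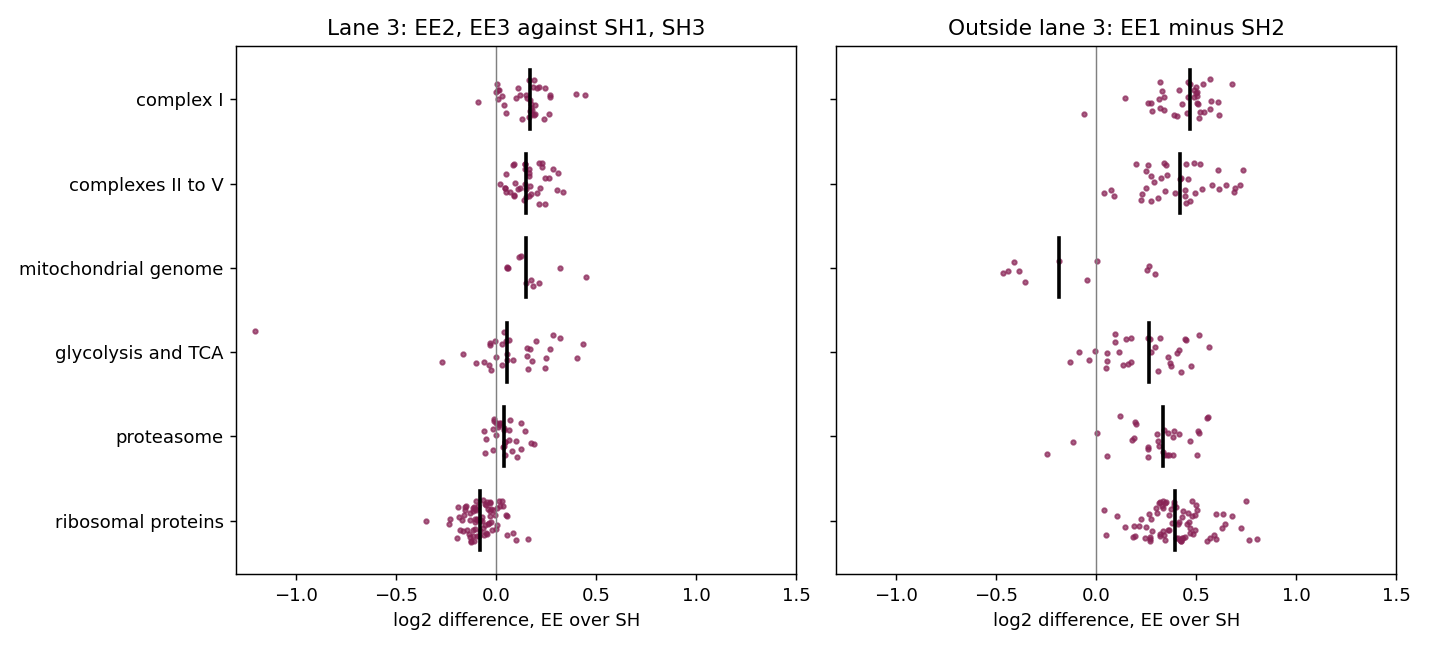
Each point is 1 gene of a list, with its log2 difference (EE over SH) within lane 3 on the left and between EE1 and SH2 on the right, black bars being medians. Respiratory chain genes lie mostly above 0 in both panels (medians 0.17 and 0.15 within lane 3), while ribosomal protein genes lie below 0 within lane 3 (median −0.08) and above it between EE1 and SH2.

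Genes of injury and growth gave few calls. The regeneration-associated genes summed to 5362 to 6227 CPM in SH and 4694 to 5259 CPM in EE. High genes weigh most in such a sum, and Lifr alone had means of 1601 CPM in SH and 1305 CPM in EE. The median log2 fold change of the list was −0.11 over 6 libraries and 0.06 within lane 3. There 18 genes were positive and 12 negative. Of 30 regeneration-associated genes 1 rose and 2 fell within lane 3 (against 1.88% and 2.18% of all genes): Tnfrsf12a, a receptor of the TNF family (2.31, 3.90 and 3.05 CPM in SH, 4.05, 5.12 and 5.18 CPM in EE, 0.94, limma-voom adjusted p = 0.0515), and the cytokine receptor genes Il6st (−0.33) and Lifr (−0.29). Atf3, a transcription factor induced by nerve injury, stood at 12.3, 51.1 and 26.6 CPM in SH and at 24.1, 16.2 and 44.2 CPM in EE. Its values overlapped widely, and its log2 fold change was −0.09 (SE 0.45) over 6 libraries and 0.65 (SE 0.37) within lane 3. Gap43, of growth cones, Jun and Sprr1a, which was under 1 CPM in 5 of 6 libraries, did not pass in either fit. Over 6 libraries they were at 0.24 (SE 0.13), 0.25 (SE 0.19) and 0.43 (SE 0.84). Within lane 3 Gap43 was at 0.06 (SE 0.09) and Sprr1a at 1.43 (SE 0.73). Jun was at 0.54 there (SE 0.14, edgeR adjusted p = 0.0589). Fos, the immediate early gene of recent activity, stood at 3.57, 3.20 and 3.72 and 5.23, 4.21 and 6.19 CPM, with groups apart but not past the threshold (edgeR adjusted p = 0.195), and 0 of 21 activity-induced genes passed within lane 3.

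Histone acetyltransferases and deacetylases gave 1 call in 27 genes, near the share over all genes (4.06%). This was Hdac9, which fell within lane 3 (76.3, 99.3 and 79.4 CPM in SH, 68.8, 63.3 and 64.7 CPM in EE, −0.28) by edgeR and not by DESeq2 (adjusted p = 0.0604). The acetyltransferase genes Crebbp (CBP) and Ep300 (p300), which open chromatin at enhancers, were not past the threshold. Crebbp stood at 86.4, 113 and 95.9 CPM in SH and 72.2, 87.7 and 90.9 CPM in EE, with log2 fold changes of −0.24 (SE 0.11) over 6 libraries and −0.03 (SE 0.07) within lane 3. Ep300 stood at 57.9, 70.6 and 65.2 and 46.3, 54.0 and 57.9 CPM, with −0.29 (SE 0.10) and −0.14 (SE 0.08). The groups overlapped in both genes.

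Transcription factors of sensory lineages also went both ways. Against 1.88% and 2.18% of all genes, 3 of 28 rose within lane 3, Shox2, Etv1 and Maf, and 5 fell, among them Runx1, Prdm12, Pou4f2 (19.7, 22.8 and 17.8 CPM in SH, 14.9, 12.8 and 9.07 CPM in EE, −0.79) and Casz1 (75.5, 102 and 83.7 and 58.3, 57.7 and 61.7 CPM, −0.41). The RUNX core motif was in 12.1% of the promoters of genes that fell within lane 3, in 10.7% of those that rose and in 10.4% of those of small-neuron markers, beside the 12.3% of all tested genes. Promoters of the small-neuron markers held a median of 7 CG dinucleotides, those of large-neuron markers 13 and those of satellite glia markers 11. Of 40 axon guidance genes 3 rose and 3 fell (against 1.88% and 2.18% of all genes), the semaphorin gene Sema7a (0.57) being higher and Plxnd1, a semaphorin receptor (93.6, 123 and 98.9 and 70.6, 72.0 and 68.8 CPM, −0.45), lower. Of 18 sialyltransferase genes 2 fell, St6gal2 and St6galnac5 (28.4, 36.6 and 30.2 and 21.4, 17.4 and 21.7 CPM, −0.58), and 0 rose. Of 33 actin and membrane-curvature genes 2 fell, Fnbp1l and Fmnl1, and of 23 transport motors 0 passed.

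Among 17 clock genes 2 fell within lane 3 (2.18% of all genes did), both of the period family, whose proteins repress their own transcription in a daily cycle. Per2 stood at 18.5, 14.5 and 17.8 CPM in SH and at 11.1, 9.73 and 10.4 CPM in EE (−0.84, SE 0.13, edgeR adjusted p = 0.0026), and Per3 at 28.8, 24.6 and 26.6 and 19.5, 17.7 and 17.2 CPM (−0.66, SE 0.11, edgeR adjusted p = 0.00432). For both genes the highest EE library was below the lowest SH library. Arntl, which activates them, and Nr1d1, another gene of the loop, were not past the threshold (log2 fold change 0.53, SE 0.22, and 0.68, SE 0.22, over 6 libraries). The labels used here give no time of day of collection. Of 15 glucocorticoid-responsive and 18 interferon-stimulated genes 0 passed, and of 21 cholesterol synthesis genes 1 rose, Cyp51 (0.29).

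Whole ganglia of the same design, sequenced with another kit from pools of 2 mice, gave no call for the genes named so far. A model of all 12 libraries asked which genes responded differently to housing in captured neurons and in whole ganglia. Over 14800 genes 0 passed (0.0%), while 1889 had an unadjusted p under 0.05 (12.8%), with 0 calls also by limma-voom. In whole ganglia the log2 fold changes were −0.14 for Fabp7, −0.01 for Mrgprb5 and 0.09 for Fnbp1l, and the tests of the difference gave edgeR adjusted p = 0.0806, 0.119 and 0.0764. With the captured libraries of lane 3 alone, 184 genes passed. Of the genes that rose within lane 3, 43.9% of the 296 also tested in whole ganglia had a positive log2 fold change there, as did 61.0% of the 351 that fell and 51.4% of all genes. The median of small-neuron lists in whole ganglia lay between −0.01 and 0.10 and that of large-neuron markers at −0.03.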

How the data were processed

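The authors deposited a table of read counts per gene name for the captured libraries, with 5 summary entries that name no gene (no feature 28.0 to 36.3% and not unique 11.0 to 15.2% of reads), left out here. Their second table was a signal equal to these deposited counts times 1 constant per library and served as an alternative. HTSeq 0.6.0, Bowtie2 2.2.3, TopHat2 2.0.12 and the mm10 build are named in the submitters' processing notes. Their roles, and whether counting used strand, are not given in the sources used here, so overlapping and antisense genes cannot be separated. Libraries held 19296230 to 29434351 reads in genes, at which the counting CV at a gene's mean count was under the lane 3 coefficient of variation (0.071) for 59.6% of tested genes.

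Counts were filtered by filterByExpr, scaled by TMM and tested with edgeR 4.0.16 (R 4.3.3, quasi-likelihood, Benjamini-Hochberg over all genes, threshold 0.05), on 6 libraries and on 4 of lane 3. The difference from whole ganglia was the interaction over 12 libraries. CPM are TMM-normalised and list deviations use log2 CPM with 0.5 added. Scripts were tested on simulated data. Alternatives were DESeq2 1.42.0, limma-voom (limma 3.58.1), the likelihood ratio test, other scalings and filters, limma on log2 of the second table with 1 added, lane as a term, a replicate block, left-out libraries and offsets for length and GC content (splines, 4 degrees of freedom).

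Members, the 42 gene lists and the designs were chosen with earlier results of these data known (Fabp7, Aldoc and Aif1l sit in the satellite glia list, Fnbp1l and Fmnl1 in the actin list, St6gal2 in the sialyltransferase list), so a list's direction is not independent evidence. The rule for named genes took all genes past 0.05 over 6 libraries, 12 per direction past 0.05 within lane 3 with groups apart and a mean log2 CPM from 3 upwards, up to 4 per list by smallest p, and 12 fixed genes such as Atf3, Crebbp and Pvalb. Other genes named, among them Acpp, Car2, Clec2l, Nefh, Mrgprd, Th, Sst, Trpv1, Hk2, Cd163, Cx3cr1, Tyrobp and the Hox genes, were chosen after their values were seen. Positions and lengths are from GENCODE M21 and promoters from RefSeq GRCm38.p6. Some genes that entered the fits and lists are not reported here.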

Additional observations from a re-analysis of the deposited data

How the results depend on the processing

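The count over 6 libraries (3 genes) was 3 with RLE factors, library size alone, limma-voom and the second table, 2 with length and GC corrected, 1 with a minimum average log2 CPM of 3 and 0 with the replicate block. It was 902 with no filter, 522 with DESeq2 (218 higher, 304 lower, 310 of them among the lane 3 calls), 389 with the likelihood ratio test, 658 within lane 3, 663 with lane as a term, 106 at a threshold of 0.1, and 0 to 602 with 1 library left out. Whether replicate numbers pair the libraries stayed unsettled. Correlations of deviations were 0.21, −0.08 and 0.27 within the numbers 1, 2 and 3, and −0.30 to 0.16 between numbers. The lane 3 count (658) was 1006 with the likelihood ratio test, 1019 at a threshold of 0.1, 606 to 935 otherwise and 546 to 755 with 1 library left out. The difference from whole ganglia (0) was 11 with no filter, 184 with captured libraries of lane 3 and 0 to 256 with 1 library left out (256 without EE1, 1 without SH2). The replicate block left it at 0.

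Of 143 genes named, these changed direction over 6 libraries in some setting. Atf3 was 0.011 with limma-voom, 0.025 with the second table, 0.031 with the replicate block, 0.65 in lane 3 and 0.65 with lane as a term, and −0.57 to 0.54 with a library left out. Srd5a2 was −1.16 with limma-voom, −1.53 with the second table, −0.56 with the replicate block, −2.46 in lane 3 and −2.45 with lane as a term, and −3.04 to 1.24 with a library left out. Rpl3 was −0.083 in lane 3 and with lane as a term, and −0.043 to 0.14 with a library left out. Sprr1a was −0.32 with limma-voom, −0.13 with the second table, and −1.36 to 1.00 with a library left out. With length and GC corrected Ntrk3 was 0.010 and mt-Cytb −0.066. With a library left out, mt-Cytb ranged from −0.057 to 0.12, Hoxd10 from −2.31 to 0.27, Penk from −1.71 to 0.28, S100a9 from −2.42 to 0.17, Scn7a from −0.23 to 0.018 and Trpv1 from −0.47 to 0.038. Causes were not tested.

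Of 127 genes named as changed within lane 3, 0 reversed. Leaving out SH1, SH3, EE2 or EE3 ended 29, 12, 21 and 17 of their calls, the lone library being assumed to vary like the others. DESeq2 ended 5 (Cox5a, Hdac9, Hoxb9, Hoxd10, Trpv1), limma-voom 6 (Hoxd10, Ltf, S100a8, S100a9, Tnfrsf12a, Trpv1), library size alone 1 (Cox5a) and length and GC 2 (Cox5a, mt-Cytb). Of 42 list medians 10 moved by more than the spread between libraries within lane 3, among them ribosomal proteins (−0.08) and respiratory chain genes (0.17 and 0.15).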

Other observations

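Some of the largest differences within lane 3 were in genes of low level, and EE1 did not share many of them. Of the 657 genes called there and tested over 6 libraries, 114 had the opposite sign between EE1 and SH2, and 20 of these were among the 42 that changed by at least 2-fold within lane 3. Chrna3, a nicotinic receptor subunit, stood at 22.4, 21.01 and 9.91 CPM in SH1 to SH3 and at 28.5, 4.31 and 5.13 CPM in EE1 to EE3 (−1.77 within lane 3, SE 0.30). Penk, which encodes enkephalin peptides, stood at 9.56, 14.2 and 6.09 and 20.1, 2.43 and 3.62 CPM (−1.36), and Srd5a2, a steroid reductase, at 2.82, 6.81 and 2.74 and 17.9, 0.101 and 0.871 CPM (−2.46). For all 3 EE1 was the highest library and EE2 and EE3 were the lowest, as for Hoxd10.

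The neutrophil genes Ngp, Ltf, S100a8 and S100a9 fell within lane 3 (log2 fold changes −3.101, −3.099, −2.43 and −2.70), from a summed level of 10.5 CPM in SH1 and 4.18 CPM in SH3 to 1.42 CPM in EE2 and 0.687 CPM in EE3. With limma-voom the calls of Ltf, S100a8 and S100a9 ended (adjusted p = 0.0832, 0.0769 and 0.0515). SH2, at 3.85 CPM, was below EE1, at 8.03 CPM. On the higher side, Pgf, a growth factor for blood vessels, stood at 4.18, 3.38 and 4.70 CPM in SH and at 6.74, 10.2 and 8.29 CPM in EE, and Olfm3, a secreted protein of neurons, at 7.65, 6.53 and 8.62 and 9.88, 17.6 and 16.5 CPM. Both had groups apart and rose within lane 3 (1.06 and 1.07). Nxph1, a ligand of neurexins, stood at 4.18, 1.79 and 4.03 and 3.47, 8.92 and 8.71 CPM and rose there (1.10), with EE1 inside the SH range. All these genes were chosen after their values were seen.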
